A study of Mus musculus with 2 samples.

Results

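Teneurins, latrophilins and FLRT proteins are cell surface proteins that bind one another between neurons. The 10 mouse genes described here were taken by name: the teneurin genes Tenm1, Tenm2, Tenm3 and Tenm4, the latrophilin genes Adgrl1, Adgrl2 and Adgrl3, and the FLRT genes Flrt1, Flrt2 and Flrt3. All 10 were matched by symbol and gene identifier among 55536 annotated genes, of which 22028 are protein-coding. The RNA came from the left cerebral cortex of female B6CASTF1/J mice, the F1 offspring of C57BL/6J and CAST/EiJ parents, aged 4 days. The series is 1 group of 2 total RNA libraries, replicate 1 and replicate 2, each made from 300 ng of RNA with spike-in RNAs. The labels describe them as 2 separate female biosamples that share a donor record, and they name no treatment. No condition was contrasted, so what follows describes levels, transcript forms and how far the libraries differed. Animal, dissection and library preparation cannot be told apart in that difference.

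Teneurins are large transmembrane proteins with a long extracellular part that holds EGF-like repeats and a beta-propeller. Latrophilins are adhesion G-protein-coupled receptors, named for the spider toxin that binds Adgrl1. FLRT proteins carry leucine-rich repeats. A teneurin or an FLRT on one cell can bind a latrophilin on another, and FLRTs also bind the UNC5 guidance receptors. In the cortex these proteins are known for their parts in the migration of young neurons and in the formation of synapses.

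Small alternative exons in latrophilins and teneurins are known sites of splicing in their extracellular parts. The exons that the results on splicing turn on are shown first, read from the transcript sequences of GENCODE M21 on mm10. Each is printed in the direction of the transcript, with the exon in capitals and 12 bases of the neighbouring exons in lower case. The latrophilin site lies between the lectin-like and olfactomedin domains, and its exons have 15, 12 and 15 bases.
Adgrl1, chr8:83926262-83926276, plus strand: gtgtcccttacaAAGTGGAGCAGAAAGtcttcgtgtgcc
Adgrl2, chr3:148860427-148860438, minus strand: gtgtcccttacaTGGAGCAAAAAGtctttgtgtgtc
Adgrl3, chr5:81509724-81509738, plus strand: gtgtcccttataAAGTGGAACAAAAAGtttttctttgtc

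The exons of Adgrl1 and Adgrl3 shared 13 of 15 bases. The 12-base exon of Adgrl2 shared 11 of 12 bases with the last 12 bases of either. All 3 exons are coding and have lengths that are multiples of 3, so the reading frame is kept with or without them.

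Each teneurin gene has a 21-base exon in the part that encodes the beta-propeller, and 3 of them have a 24-base or 27-base exon in the part that encodes the EGF-like repeats. The 21-base exons are shown because all 4 genes hold one.
Tenm1, chrX:42648394-42648414, minus strand: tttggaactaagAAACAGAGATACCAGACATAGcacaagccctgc
Tenm2, chr11:36054926-36054946, minus strand: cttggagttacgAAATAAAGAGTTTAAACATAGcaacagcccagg
Tenm3, chr8:48287133-48287153, minus strand: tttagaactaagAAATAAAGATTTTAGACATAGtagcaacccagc
Tenm4, chr7:96854717-96854737, plus strand: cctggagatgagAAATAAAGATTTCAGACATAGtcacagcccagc

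Between Tenm3 and Tenm4 the 21-base exons shared 20 bases, and between Tenm2 and Tenm3 they shared 19. The exon of Tenm1 was the most different, with 14 bases shared with Tenm2 and 17 with Tenm4. The exons of the EGF-like part are given next, for the same comparison.
Tenm1, chrX:42727337-42727360, minus strand: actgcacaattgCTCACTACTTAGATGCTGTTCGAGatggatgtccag
Tenm3, chr8:48313238-48313264, minus strand: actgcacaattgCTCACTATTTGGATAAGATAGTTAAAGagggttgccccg
Tenm4, chr7:96805105-96805131, plus strand: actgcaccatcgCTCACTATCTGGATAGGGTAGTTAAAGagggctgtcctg

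The 27-base exons of Tenm3 and Tenm4 shared 24 bases. Tenm2 has no annotated internal coding exon of up to 60 bases other than its 21-base exon.

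The libraries were of similar depth, with 29310533 and 28844674 expected counts over annotated genes in replicates 1 and 2. Neuron markers were high, with a summed level of 3325 TPM in replicate 1 and 3210 TPM in replicate 2 over 6 genes, from Tubb3 at 1272 ± 62.9 TPM to Neurod6 at 116 ± 5.22 TPM (SD, n = 2). TPM is transcript abundance scaled by transcript length and by the library's total, so it can be compared between genes. Of 84 markers in 14 lists of cell types and regions, 72 reached a TPM of 1 in both libraries, and none was at 0 in both. The libraries differed in choroid plexus and blood markers. The 6 choroid plexus and ependyma genes summed to 220.0 TPM in replicate 1 and 7.36 TPM in replicate 2, mostly through Ttr at 206 and 1.94 TPM, and the 6 blood genes to 477 and 63.0 TPM. The other 12 lists differed by less, with ratios of their sums from 0.949 to 1.14. In tissue libraries of this kind, fewer cells of a type and less RNA per cell cannot be told apart.

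All 10 genes reached a TPM of 1 in both libraries, where 59.6% of protein-coding genes and 27.6% of all annotated genes did. The latrophilin genes had the highest levels, the teneurin genes were in the middle and the FLRT genes were lowest. In both libraries every latrophilin gene was above every teneurin gene, and every teneurin gene was above every FLRT gene. The summed level was 441 ± 24.9 TPM for the 3 latrophilins, 262 ± 23.3 TPM for the 4 teneurins and 58.6 ± 1.80 TPM for the 3 FLRTs (SD, n = 2). TPM is relative to all RNAs counted: rescaled to protein-coding genes alone, the levels kept their order but ran from 19.7 TPM for Flrt1 to 385 TPM for Adgrl1, against 10.4 and 203 TPM as deposited.

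**Figure D1:**
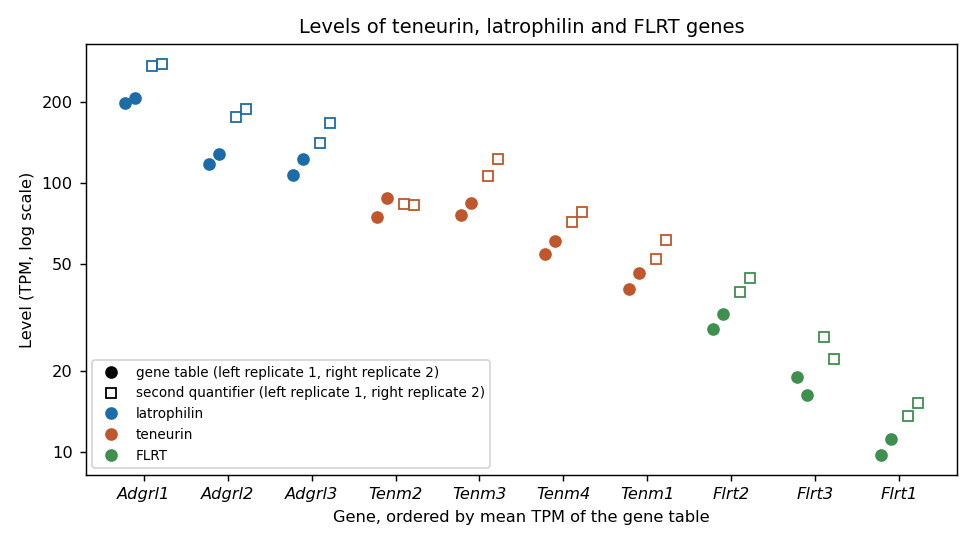
Levels of the 10 genes in TPM on a log scale, ordered by the mean of the gene table. Filled circles are the gene table and open squares the second quantifier, with replicate 1 to the left of replicate 2. Latrophilins run from 107 to 207 TPM in the gene table, teneurins from 40.3 to 87.7 and FLRTs from 9.71 to 32.4, with no overlap between the families.

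Among the latrophilins, which act as receptors, Adgrl1 (ENSMUSG00000013033.16, chromosome 8, 83900105 to 83941954) had 199 TPM in replicate 1 and 207 TPM in replicate 2, or 203 ± 6.26 TPM (SD, n = 2). It rested on 27794 and 27285 expected counts and ranked at percentile 98.4 of protein-coding genes. Adgrl2 (ENSMUSG00000028184.12, chromosome 3, 148815583 to 148990555) was at 118 and 128 TPM. Adgrl1 was 1.69 and 1.62 times Adgrl2 in the libraries, and their ranges did not overlap. Adgrl3 (ENSMUSG00000037605.16, chromosome 5, 81020138 to 81825133) was at 107 and 123 TPM, which overlapped the range of Adgrl2. Within each library Adgrl2 was slightly above Adgrl3, by 1.103 times in replicate 1 and 1.04 times in replicate 2. Adgrl1 took 46.9% and 45.3% of the summed latrophilin TPM in replicates 1 and 2.

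The teneurins are ligands of the latrophilins. Tenm2 (ENSMUSG00000049336.16, chromosome 11, 36006656 to 37235964) had 74.9 TPM in replicate 1 and 87.7 TPM in replicate 2, and Tenm3 (ENSMUSG00000031561.16, chromosome 8, 48227682 to 48843951), a gene known for its part in the wiring of sensory maps and the hippocampus, at 75.8 and 83.9 TPM. Their ranges overlapped, and the higher of them differed between the libraries. Tenm4 (ENSMUSG00000048078.16, chromosome 7, 96171246 to 96911093) was at 54.6 and 61.0 TPM, below both. Tenm1 (ENSMUSG00000016150.15, chromosome X, 42527866 to 43429126), the X-linked member, was lowest at 40.3 and 46.1 TPM. Of the teneurin pairs, 0 of 6 were at least 2-fold apart in both libraries by the gene-level TPM, as were 0 of 3 latrophilin pairs.

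The FLRT genes, which encode ligands of latrophilins and UNC5 receptors, were spread more widely. Flrt2 (ENSMUSG00000047414.6, chromosome 12, 95692226 to 95785215) had 28.7 TPM in replicate 1 and 32.4 TPM in replicate 2. Flrt3 (ENSMUSG00000051379.12, chromosome 2, 140650914 to 140671469) was at 18.9 and 16.3 TPM, and Flrt1 (ENSMUSG00000047787.8, chromosome 19, 7092001 to 7105729) at 9.71 and 11.1 TPM. None of these ranges overlapped, and Flrt2 over Flrt1 was the 1 FLRT pair of 3 past 2-fold. By the gene-level TPM, 27 of all 45 pairs among the 10 genes were at least 2-fold apart in the same direction in both libraries. Among them were 9 of 9 latrophilin and FLRT pairs. Of the 9 neighbouring steps in the order of levels, 7 had ranges that did not overlap, the exceptions being Adgrl2 with Adgrl3 and Tenm2 with Tenm3.

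Levels were also deposited from another quantifier, in what is called the second table here. It gave the same order of the families but higher values. Adgrl1 was at 275 ± 4.00 TPM there, and for 9 of the 10 genes the level was 1.29 to 1.48 times that of the gene table. Tenm2 was the exception, at 83.1 ± 0.693 TPM or 1.02 times, which placed it below Tenm3 (114 ± 12.1 TPM) with no overlap. Tenm3, at 106 and 123 TPM there, was also just over 2-fold above Tenm1, at 52.0 and 61.2 TPM. Adgrl2 was then above Adgrl3 without overlap too, at 176 and 188 TPM against 141 and 167 TPM.

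The TPM of a gene sums all its annotated transcripts, which for several members include short and noncoding forms. The first table holds the transcript levels behind the gene table. The 10 genes have 105 annotated transcripts, from 1 for Flrt1 to 35 for Adgrl3. For this description, made after the levels were seen, a transcript was called full-length coding when it has the protein-coding label, complete ends and at least 50% of the gene's longest coding length. Other protein-coding transcripts were called partial, and the rest have no protein-coding label (retained introns, processed transcripts and decay targets). The FLRT genes were made of full-length coding transcripts alone in both libraries, and their whole coding sequence lies in 1 exon. For Flrt1 and Flrt2 this is fixed by the annotation, which lists 1 and 2 transcripts, all of that class. Flrt3 has 1 transcript of another class, at 0 TPM in both libraries. Adgrl1 was close to that, with 92.3% and 89.8% of its TPM full-length coding in replicates 1 and 2.

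**Figure D2:**
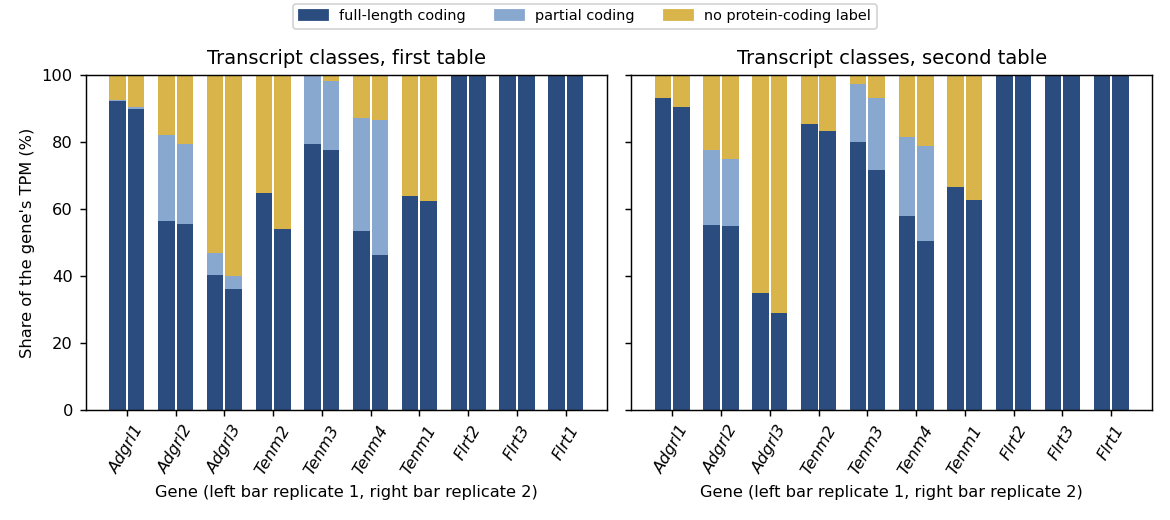
Share of each gene's TPM, in percent, taken by full-length coding, partial coding and other transcripts, for replicate 1 (left bar) and replicate 2 (right bar) in each transcript table. Adgrl3 has the smallest full-length coding share, 40.3% and 36.1% in the first table. The 3 FLRT genes are at 100%, which for Flrt1 and Flrt2 is fixed by the annotation.

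Adgrl3 was the other extreme. Transcripts with no protein-coding label took 53.0% of its TPM in replicate 1 and 59.96% in replicate 2, led by Adgrl3-228 (17.0% ± 0.345) and Adgrl3-231 (12.3% ± 0.330), both labelled as retained introns. Its leading full-length form, Adgrl3-207, took 11.02% ± 0.296. The second table gave a different leader, the decay target Adgrl3-223, at 20.4% ± 1.30 there and 6.48% ± 1.40 in the first table. Full-length coding transcripts of Adgrl3 summed to 42.9 and 44.2 TPM, and those of Adgrl2 to 66.4 and 71.2 TPM.

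On full-length coding transcripts the families were no longer apart. Adgrl1 stayed highest, at 183 and 186 TPM, and Adgrl2 was next. Tenm3 at 60.3 and 65.1 TPM and Tenm2 at 48.6 and 47.5 TPM were above Adgrl3. Flrt2, at 28.7 and 32.4 TPM, overlapped Tenm4 (29.2 and 28.2 TPM) and Tenm1 (25.8 and 28.8 TPM). The order of families given above therefore holds for the summed gene level and not for full-length coding transcripts.

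Each teneurin had 1 leading full-length transcript that was the same in both libraries and both tables. Tenm3-201, with 29 exons and 8145 coding bases, took 75.5% ± 0.967 of the gene's TPM. Tenm2-202 took 54.5% ± 5.94, Tenm1-203 48.8% ± 1.52 and Tenm4-203 42.1% ± 5.77. Short transcripts took much of the rest, from few reads. Tenm4-209, 704 bases long, took 33.5% ± 1.68 of the TPM of Tenm4 but 2.70% and 3.29% of its counts in replicates 1 and 2. Tenm1-204, 1143 bases, took 32.3% ± 2.04 of TPM and 3.97% and 4.48% of counts. Tenm2-207, 368 bases, took 24.0% ± 4.42 of TPM from 81.5 and 118 counts, and 2.57% ± 2.39 in the second table. Tenm3-202, 639 bases, took 11.1% ± 0.0106 of TPM and was listed at 0 by the other quantifier.

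Other full-length forms were listed for some teneurins. Tenm1-201, which starts further upstream than Tenm1-203 and has as many coding bases, 8193, took 13.4% ± 0.754. Tenm2-201, which has 8295 coding bases and starts further downstream than Tenm2-202, was at 4.96% ± 1.69, but at 26.04% ± 1.48 by the other quantifier, so its share depended on the table.

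For the latrophilins, Adgrl1-207 (23 exons, 4398 coding bases) led in both libraries and tables with 78.8% ± 0.740 of the gene's TPM in the first table. No transcript of Adgrl2 took more than 22.3% in either library. Its 3′ form Adgrl2-203, with 717 coding bases, was at 19.3% ± 0.00592, but at 4.55% ± 3.60 by the other quantifier. Adgrl2-212 had 15.8 TPM in replicate 1 and 28.6 TPM in replicate 2, and it led in replicate 2 only, in both tables. Adgrl2-211, a retained intron, took 10.5% ± 0.305. In the second table Adgrl2-214 led in replicate 1, with 13.3% ± 1.07 over both libraries there.

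Flrt2 and Flrt3 each had a pair of transcripts with 1 coding length, 1980 and 1947 bases. Flrt2-201, with the longer ends, took 63.6% ± 1.105 and Flrt2-202 36.4% ± 1.105. A further transcript of Flrt3, Flrt3-203, was listed at 0 in both libraries. Flrt3-202 took 82.9% ± 2.50 and Flrt3-201 17.1% ± 2.50. The second table was close, with 65.4% ± 0.868 for Flrt2-201 and 79.8% ± 2.39 for Flrt3-202. Of the 9 members with several transcripts, 8 had the same leading transcript in both libraries in the first table, where 87.7% of such genes did, and 8 in the second, where 85.7% did. In both libraries and both tables it was the same for 7 of the 9, against 65.3% of genes.

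The small exons shown above were then measured. Internal coding exons of up to 60 bases number 25 in the 10 genes, all in latrophilins and teneurins. Of these, 21 are skipped by at least 1 annotated transcript that spans them. The share of an exon is the TPM of transcripts that contain it over the TPM of all transcripts that span its position. It comes from the estimated transcript levels, not from reads over the splice junctions.

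At the latrophilin site the shares of the 3 genes differed. The 15-base exon of Adgrl1 had a low share, 13.8% in replicate 1 and 13.6% in replicate 2. That share rests mostly on Adgrl1-207, which lacks the exon and alone among the full-length coding forms extends to 83941954. Adgrl1-210 and Adgrl1-205 have the same ends, and only Adgrl1-210 contains the exon. It was at 16.2 and 13.8 TPM, against 0 in both libraries for Adgrl1-205. How far the low share depends on reads of the longer 3′ end was not tested. The 12-base exon of Adgrl2 was mostly present, at 78.7% and 73.8%, and so was the 15-base exon of Adgrl3, at 76.2% and 73.8%. Each gene's libraries were close, and the Adgrl1 values were far below the other two in both. In the second table the shares were 25.5% and 26.1% for Adgrl1, 68.6% and 63.0% for Adgrl2 and 80.8% and 77.3% for Adgrl3. Among protein-coding transcripts alone the exon of Adgrl3 was at 100% and 98.7%, and that of Adgrl1 at 14.1% and 12.8%. Only 1 annotated coding transcript of Adgrl3 that spans the site lacks this exon. It has an 11-base exon instead, at 0% and 1.29% of the TPM of those coding transcripts. The value near 100% is thus set by the annotation, and no coding form of Adgrl3 without either exon could be measured. The skipped share of Adgrl3 given first came almost wholly from transcripts with no protein-coding label.

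**Figure D3:**
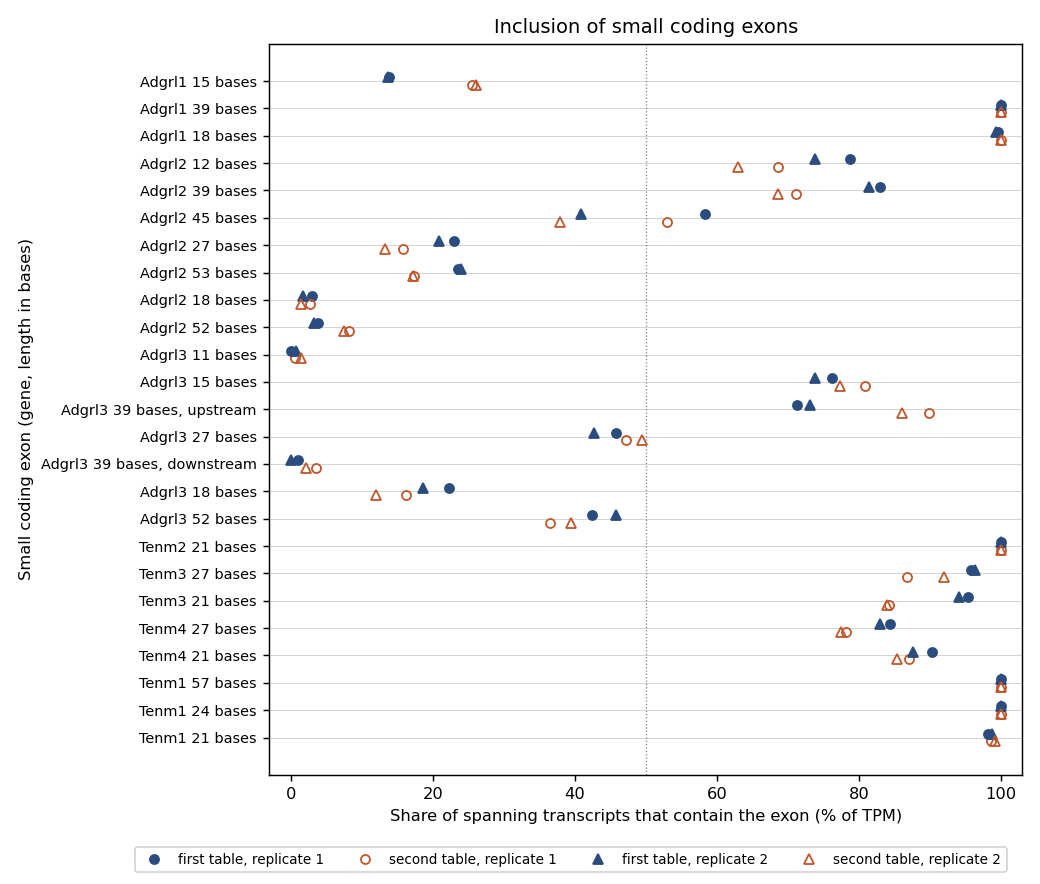
Share of spanning transcripts that contain each small coding exon, in percent of TPM, with exons listed by gene and length in 5′ to 3′ order. Filled symbols are the first and open symbols the second transcript table, circles replicate 1 and triangles replicate 2, and the dotted line is 50%. The 15-base exon of Adgrl1 lies below the line at 13.8% and 13.6%, while the matching exons of Adgrl2 and Adgrl3 and the teneurin exons lie above it.

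The teneurin exons had high shares. The 21-base exon was at 98.1% and 98.8% in Tenm1, 95.3% and 94.1% in Tenm3, and 90.2% and 87.6% in Tenm4, in replicates 1 and 2. In Tenm2 each of the 3 annotated transcripts that span it contains it, so its share is 100% by the annotation and no skipped form could be measured. The 27-base exon was at 95.8% and 96.4% in Tenm3 and 84.3% and 82.9% in Tenm4. In Tenm3 the 21-base and 27-base exons are both in Tenm3-201 alone, and in Tenm4 both are in Tenm4-203 and Tenm4-202 alone. Among protein-coding transcripts the 2 exons therefore had the same share, 95.8% and 96.4% in Tenm3 and 90.2% and 87.6% in Tenm4. Inclusion of one exon apart from the other could not be measured in these genes. The Tenm4 shares rest on Tenm4-203, which alone among its full-length coding forms extends to 96911093. Tenm4-202, with both exons, and Tenm4-201, with neither, end at 96908554 and 96908569. In replicates 1 and 2 Tenm4-202 was at 1.16 and 1.56 TPM, below Tenm4-201 at 2.86 and 3.49 TPM. How far the high Tenm4 shares depend on reads of the longer 3′ end was not tested. The second table gave lower shares for Tenm3 and Tenm4, down to 77.5% for the 27-base exon of Tenm4, and 98.6% and 99.1% for the 21-base exon of Tenm1. The 24-base and 57-base exons of Tenm1 are in every transcript that spans them.

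Further latrophilin exons varied. A 39-base exon is in every spanning transcript of Adgrl1, and its match in Adgrl2, with 27 of 39 bases shared, was at 82.9% and 81.5%. The match in Adgrl3, with 25 bases shared with Adgrl2, was at 71.3% and 73.1%. The order of Adgrl2 and Adgrl3 at this exon was reversed in the second table, with 71.1% and 68.5% for Adgrl2 against 89.8% and 86.0% for Adgrl3. It was also reversed among protein-coding transcripts, where Adgrl3 was at 85.6% and 90.1%. A 27-base exon, with 21 bases shared between Adgrl2 and Adgrl3, was at 22.9% and 20.8% in Adgrl2 and at 45.8% and 42.7% in Adgrl3. Among protein-coding transcripts alone the Adgrl3 share was 39.5% and 30.5%. In the second table those transcripts gave 14.7% and 15.1% for Adgrl3 beside 17.0% and 14.3% for Adgrl2, so the difference between the genes depended on the table and the transcripts counted. The 52-base exon of Adgrl3, whose match in Adgrl2 shares 44 of 52 bases, was at 42.5% and 45.8%, or 36.5% and 39.4% in the second table. That match was at 3.90% and 3.29%, or 8.27% and 7.51% in the second table. Of the 17 Adgrl2 transcripts that span the match, 1 contains it, the partial Adgrl2-219, against 8 of 24 for the Adgrl3 exon. No full-length Adgrl2 transcript could add to its share, so this difference is partly set by the annotation. Among protein-coding transcripts alone the 52-base Adgrl3 exon was at 52.0% and 61.0%. An 18-base exon of Adgrl3 starts at the same position, 81792361, and was at 22.3% and 18.6%. Transcripts without the 52-base exon therefore did not all skip this position. An 18-base exon of Adgrl2 also starts with the 52-base match, and was at 3.00% and 1.67%. The 18-base exon of Adgrl1, in 6 of the 7 transcripts that span it, was at 99.6% and 99.3%. A 45-base exon of Adgrl2 was on both sides of 50%, at 58.4% in replicate 1 and 40.9% in replicate 2, and was the 1 skippable exon of 21 not on the same side in both libraries and both tables.

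Differences between the libraries were small. On expected counts with library sizes scaled by TMM factors, none of the 10 genes reached a ratio of 1.5 in either direction, where 11.4% of 18492 genes did. Most of those genes had fewer counts than any of the 10, so this share and those by direction below are not matched for counts. An exact 95% counting interval of the ratio left out 1 for 7 of the 10, against 34.1% of tested genes and 58.1% of the 5132 genes with at least the 2277 summed counts of Flrt1. Of the 7, 3 were higher in replicate 2, where 16.2% of tested genes were, and 4 lower, where 17.9% were. This balance turned with the scaling, to 6 higher and 2 lower with total counts and 6 higher and 4 lower with DESeq2 size factors. These intervals cover counting error only and compare these 2 libraries. Flrt3 had the largest difference, with 1388 and 1134 counts and a ratio, replicate 2 over replicate 1, of 0.805 (interval 0.743 to 0.871). Tenm4 was at 0.922 (0.893 to 0.953). Both were below 1 with intervals that left out 1 under every scaling tried and in the second table. The ratios above 1 were at most 1.07, for Flrt1 and Flrt2. Beside these stand the choroid plexus and blood sums given above, far lower in replicate 2, whose part in the Flrt3 difference was not tested.

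**Figure D4:**
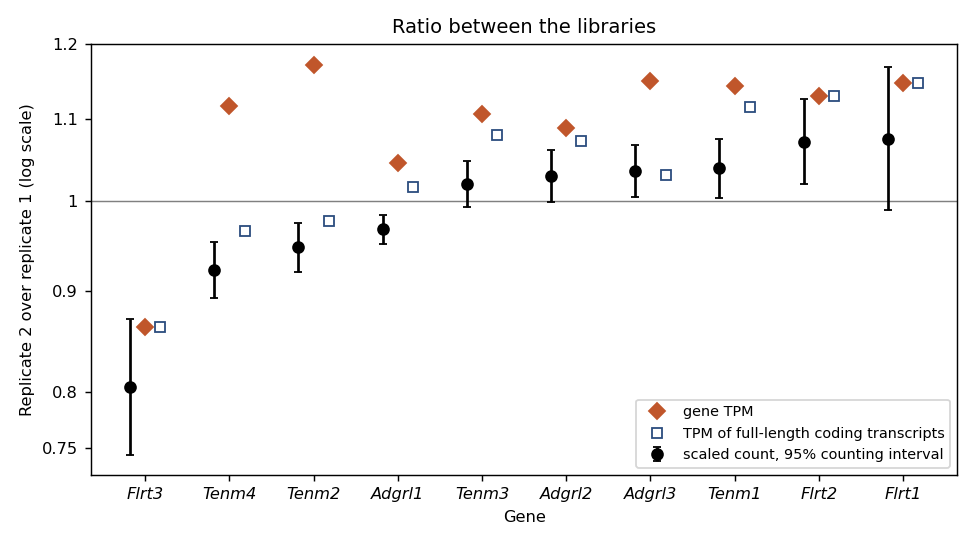
Ratio of replicate 2 over replicate 1 for each gene on a log scale, from scaled counts with exact 95% counting intervals (circles), gene TPM (diamonds) and TPM of full-length coding transcripts (squares). For Tenm4 and Tenm2 the gene TPM lies above 1 while counts and full-length coding transcripts lie below it.

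For 3 of the 10 genes, Tenm2, Tenm4 and Adgrl1, counts and TPM pointed in opposite directions, as they did for 25.1% of 15122 tested genes that reached 1 TPM in both. Over those genes the TPM ratio was above 1 for 65.2% and the scaled count ratio for 44.7%, so the 2 scales were offset. The log2 TPM ratio of Adgrl1, 0.063, was close to their median of 0.071. Tenm2 had 9666 counts in replicate 1 and 9293 in replicate 2, a scaled ratio of 0.947, while its TPM ratio was 1.17. The effective length used for its TPM was 6647 bases in replicate 1 and 5728 in replicate 2. The short Tenm2-207 was at 15.6 and 23.8 TPM on its 81.5 and 118 counts, while full-length coding transcripts were at 48.6 and 47.5 TPM. Tenm4 had the same pattern, with a scaled count ratio of 0.922, a TPM ratio of 1.12 and a full-length coding ratio of 0.965.

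Transcripts with no protein-coding label took a larger share of TPM in replicate 2 for all 7 latrophilins and teneurins, in both tables. The share was also larger in replicate 2 for 64.2% of 9964 protein-coding genes in the first table, and for 64.3% of 9802 in the second. The median share over the first table's genes was 18.2% in replicate 1 and 20.3% in replicate 2, and over the 7 members 17.9% and 20.5%.

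Each of the 10 genes overlaps at least 1 other annotated gene, and the strand setting of the counting is not given in the labels, so reads there could be shared. Flrt3 lies within Macrod2, on the opposite strand, which was at 46.2 and 49.2 TPM, and Flrt1 overlaps Macrod1, also opposite, at 3.10 and 2.73 TPM. Tenm4 overlaps 11 annotated genes, none above 0.39 TPM in either library. Gm19744, opposite Tenm3, was at 2.46 and 1.12 TPM. Of same-strand overlaps, the loci Gm48014 and Gm48015 in Flrt2 were at 1.2 and 1.16 TPM in replicate 1 and 2.34 and 2.61 TPM in replicate 2, and Gm43594 in Adgrl3 at 0.57 and 1.76 TPM. The posterior SD deposited for the count was 0 for all 10 genes in both libraries.

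Known binding and signalling partners of the 10 genes, taken as 6 lists, were all detected by the same threshold, 20 of 20, beside the 59.6% of protein-coding genes given above. Among UNC5 receptors, which bind FLRTs, Unc5a (25.9 ± 0.396 TPM), Unc5c (24.3 ± 2.30) and Unc5d (22.4 ± 0.976) were below Flrt2 and above Flrt3 in both libraries, and Unc5b was lower at 4.29 ± 0.304 TPM. Of the neurexin genes, which encode presynaptic proteins that can bind latrophilins, Nrxn2 was at 374 ± 3.71 TPM and Nrxn3 at 70.7 ± 11.98. The guidance receptor gene Robo1 was at 64.8 ± 2.79 TPM and the growth factor receptor genes Fgfr1 and Fgfr2 at 23.9 ± 1.09 and 17.4 ± 0.460.

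**Figure D5:**
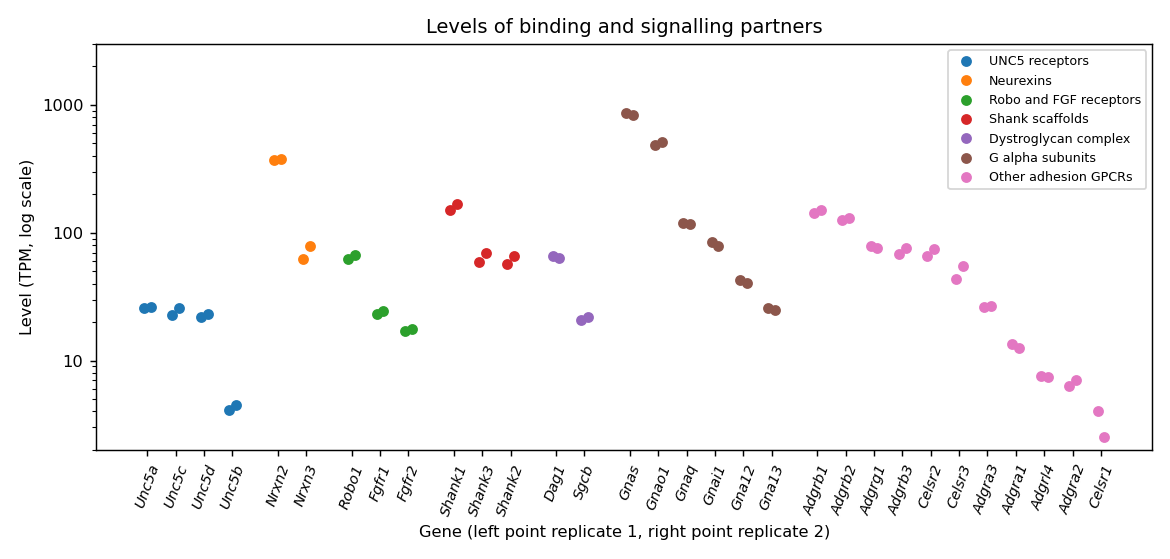
Levels in TPM on a log scale of 20 partner genes and 11 other adhesion receptor genes, coloured by group, with replicate 1 to the left of replicate 2. Gnas is highest at 846 TPM on average and Celsr1 lowest at 3.25 TPM.

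On the intracellular side, the scaffold genes Shank1, Shank2 and Shank3, whose proteins bind the tails of latrophilins, were at 159 ± 10.9, 61.8 ± 6.31 and 64.2 ± 7.92 TPM. G-protein alpha subunit genes were led by Gnas at 846 ± 18.5 TPM and Gnao1 at 498 ± 14.7. Gnaq was at 119 ± 1.55 TPM and Gnai1 at 81.7 ± 3.73, while Gna12 and Gna13 were at 41.5 ± 1.12 and 25.5 ± 0.587. Dag1, the dystroglycan gene, was at 64.6 ± 2.22 TPM and Sgcb, a sarcoglycan gene of the same complex, at 21.5 ± 0.841. Scaled count ratios between the libraries for these 20 genes ran from 0.879 for Gnai1 to 1.103 for Shank3.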

How the data were processed

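Total RNA-seq of 2 libraries was used, on mm10 with GENCODE M21, as named in the deposited file descriptions. The authors' gene and first transcript tables, made from transcriptome alignments, hold expected counts and TPM with the column names of RSEM, per the file headers. The second transcript table, made from the reads, holds estimated counts and TPM with the column names of kallisto. The deposited percent values are each transcript's share of the gene's TPM, and shares recomputed here differed from them by at most 0.0269 points. The aligner, the tool versions and the strand setting of the counting were not given in the sources used here.

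Levels are TPM as deposited, mean ± SD over the libraries. Detection means a TPM of at least 1 in both. Expected counts were rounded, scaled with TMM factors (edgeR 4.0.16, R 4.3.3) and compared as ratios with exact Clopper-Pearson intervals for genes with at least 20 summed counts, with no p-value, since each side is 1 library. The interval was tested on simulated counts. Without molecular identifiers, intervals cover counting error only. Exon positions came from the GENCODE annotation. Scripts ran in Python 3.11.15 (pandas 2.3.3, scipy 1.17.1, numpy 2.4.6), and plots were drawn with matplotlib 3.10.9. The members, lists and rules were chosen with earlier results of these data known. Some items of the lists are not reported here. Named were all members, all reported partner genes, the highest and lowest markers of the lists discussed, leading transcripts and those of at least 10%. No likeness of pattern to other genes was computed, since 2 libraries give none. Alternatives were DESeq2 1.42.0 size factors, total counts, the second table, other thresholds, rescaling to protein-coding genes, coding transcripts only and each library alone.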

Additional observations from a re-analysis of the deposited data

How the results depend on the processing

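All 10 genes stayed detected at thresholds of 0.5 and 5 TPM, in the second table, after rescaling to protein-coding genes, in each library alone and on full-length coding transcripts. The last alternative was chosen after seeing the data. Rescaling moved all 10 levels, Tenm1 from 43.2 to 81.9 TPM for example. Pairs at least 2-fold apart numbered 27 in the second table, after rescaling and with a pseudocount of 1 TPM. They numbered 26 on full-length coding transcripts, 35 at a limit of 1.5-fold, and 27 to 28 with 1 library left out. The similar total on full-length coding transcripts hides a change of pairs. There Adgrl1 over Adgrl2, Adgrl1 over Adgrl3, Tenm3 over Tenm4 and Tenm3 over Tenm1 passed 2-fold in both libraries. Pairs no longer past it were Adgrl3 over Flrt2, Adgrl3 over Tenm1, Tenm2 over Flrt2, Tenm4 over Flrt3 and Tenm1 over Flrt3. The counts of pairs by family given above therefore do not hold for full-length coding transcripts. Neighbouring steps without overlap numbered 9 in the second table and 7 otherwise. Intervals between the libraries left out 1 for 7 genes (3 higher in replicate 2 and 4 lower), 8 with total counts (6 and 2), 10 with DESeq2 size factors (6 and 4) and 4 in the second table (Flrt3, Tenm4, Tenm2 and Adgrl1, all lower in replicate 2). With total counts Adgrl1 and Tenm2 no longer differed from 1 beyond their intervals, and Adgrl2, Flrt1 and Tenm3 were higher. In the second table the ratios of Adgrl3 and Tenm3 fell just below 1, at 0.998 and 0.988. The cause was not tested. Skippable small exons at 50% or more numbered 10 in both tables, 12 on protein-coding transcripts and 10 to 11 with 1 library left out. Leading transcripts were shared by both libraries for 8 genes in each alternative. No paired analysis was possible because the series has 1 group. Shares of single transcripts rest on estimates: the posterior SD of the count of Adgrl2-212 was 282 of 1375 counts in replicate 1.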

Other observations

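The latrophilins belong to the adhesion G-protein-coupled receptors, and 11 other genes of that class were all detected, from 3.25 ± 1.06 TPM (SD, n = 2) for Celsr1 to 147 ± 4.96 TPM for Adgrb1. Adgrl1, at 203 ± 6.26 TPM, was above each of them in both libraries. The brain angiogenesis inhibitor genes Adgrb1 and Adgrb2 were at 143 and 150.2 TPM and at 125.7 and 130.8 TPM in replicates 1 and 2. Adgrb1 was above Adgrl2 and Adgrl3 in both libraries, Adgrb2 overlapped Adgrl2 (118 and 128 TPM), and Adgrb3 was at 71.5 ± 5.52 TPM. The planar polarity genes Celsr2 and Celsr3 were at 69.7 ± 5.996 and 49.5 ± 8.33 TPM, and Adgrg1, a receptor gene of cortical progenitors, at 77.7 ± 2.40 TPM. Adgra3 and Adgra1 were at 26.3 ± 0.247 and 13.0 ± 0.742 TPM. Adgrl4 (7.49 ± 0.0990 TPM) and Adgra2 (6.72 ± 0.488 TPM), both known from blood vessels, were below all 3 latrophilins in both libraries. The 6 endothelial markers ran from 5.725 ± 0.375 TPM for Tek to 40.7 ± 1.75 TPM for Cldn5, with a median of 9.94 TPM. Celsr1 had 4.00 and 2.50 TPM in replicates 1 and 2, a scaled count ratio of 0.665.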
